A study of Caenorhabditis elegans with 4 samples.

Results

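The genes described here belong to 10 families of nematode chemoreceptors, the *sra*, *srab*, *srb* and *sre* families of the Sra superfamily and the *srg*, *srt*, *sru*, *srv*, *srx* and *srxa* families of the Srg superfamily. They were chosen by gene symbol and by their summed count: of 430 genes of these families in a table of 20380 genes, the 75 with at least 40 reads over the 4 libraries are the members, 30 of the Sra and 45 of the Srg superfamily. Poly(A) RNA was sequenced from whole wild-type N2 animals raised at 20°C, from L1 until L4, with bacteria producing double-stranded RNA against *xrn-2*, which encodes a nuclear 5′-to-3′ exoribonuclease, or, for the mock, with bacteria carrying the insertless L4440 vector. Each condition has 2 libraries, replicates 1 and 2, and values are given in that order. Because *xrn-2(RNAi)* slows growth, the methods state that these cultures were collected later than mock, with the mid-L4 stage checked by vulval morphology, so that the RNAi and the time on food cannot be told apart.

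Chemoreceptors of these families are predicted proteins with 7 membrane-spanning segments, and those studied are G protein-coupled receptors that sit mostly in the cilia of sensory neurons of the head and tail. They detect odours, tastes and pheromones, and a single neuron can express many of them. In RNA of a whole animal, such genes are expected to be scarce, since each is usually used by a few cells. Fewer cells expressing a gene and less RNA per cell cannot be told apart in these data.

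The libraries held 48451504 and 43324340 counted reads in *xrn-2(RNAi)* and 41105706 and 41998429 in mock. The reads of the targeted gene could not serve to check the labels. The paper reports that *xrn-2* mRNA accumulated when XRN2 was inactivated, so these reads are no measure of the knockdown. Scaled to the mean library total, *xrn-2* had 5265 and 6032 reads in the libraries labelled *xrn-2(RNAi)*, against 4247 and 6192 in mock, higher in replicate 1 and lower in replicate 2, so that *xrn-2(RNAi)* names a label throughout. Mock replicate 2 stood apart in genes of late development. On the same scale, *vit-2*, a yolk protein gene of the adult intestine, had 13069 and 172004 reads in *xrn-2(RNAi)*, against 463 and 825122 in mock, and *rol-6*, a cuticle collagen gene of the hypodermis, had 27601 and 16610 reads, against 36251 and 137. The methods also describe the replicate 2 pair as less well matched in developmental time, so each result is given for each pair, and the part of this difference in the members' values was not tested.

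The members were close to the limit of detection. In *xrn-2(RNAi)* a member had between 5 and 629 reads in replicate 1 (median 26) and between 6 and 1586 in replicate 2 (median 36), against 0 to 700 (median 9) and 0 to 658 (median 6) in mock. No member was at 0 in an *xrn-2(RNAi)* library, whereas 13 members were at 0 in at least 1 mock library and 3 (*srx-119*, *srt-52* and *srxa-4*) in both. Among the 355 family genes below the minimum, 45 had no read in any library.

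Counts were scaled to a common library total, 8 was added, and each *xrn-2(RNAi)* library was compared with the mock library of its replicate on the log2 scale, which understates the change of genes with few reads. The members' median log2 fold change, *xrn-2(RNAi)* over mock, was 0.91 in replicate 1 and 1.45 in replicate 2, beside 0.17 and 0.37 over the 16196 genes of the whole table with at least 40 reads. Of the 75 members, 48 (64%) were higher in both pairs, 5 (6.67%) were lower in both and 22 differed in direction. Of all genes with at least 40 reads, 49.1% were higher in both pairs and 16.6% were lower in both. A log2 fold change of at least 1 in both pairs was seen in 32 members, higher in all 32, where 7.46% of all genes with at least 40 reads were that much higher and 2.20% that much lower. The conditions did not overlap in 46 members, with 44 higher and 2 (*sra-10* and *sre-13*, outside the naming rule) lower in *xrn-2(RNAi)*, beside 35.5% higher and 10.3% lower of all genes. The minimum count itself favours genes that are high in 1 condition, so these shares describe the 75 members and not the families.

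**Figure D1:**
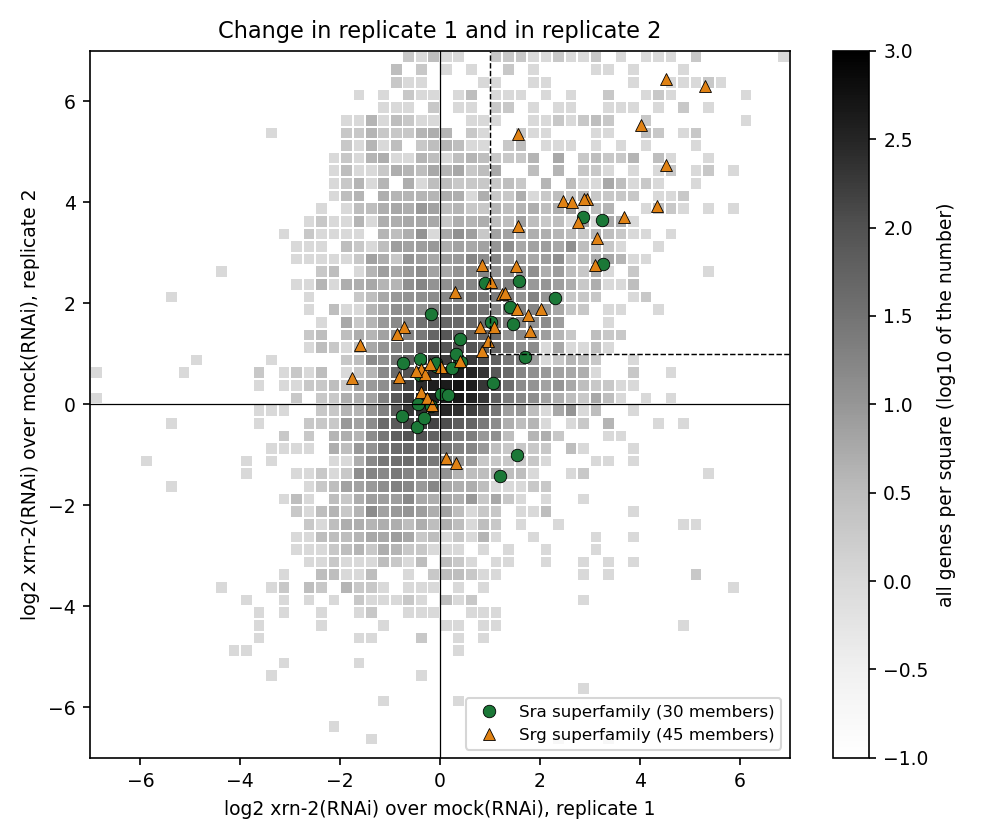
Log2 fold change, xrn-2(RNAi) over mock(RNAi), in replicate 1 (x axis) and replicate 2 (y axis), from scaled counts plus 8. Green circles are the 30 Sra and orange triangles the 45 Srg members, grey squares give the number of all 16196 genes with at least 40 reads (those beyond 7 are drawn at the edge), and the dashed lines bound the upper right area in which 32 members were at least 2-fold higher in both pairs.

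No member passed edgeR's quasi-likelihood test with the replicate as a block. Nor did any gene of the table (0 of 16178 tested, 0.00%), the smallest Benjamini-Hochberg adjusted p from edgeR being 0.254. Of the 71 members with enough reads for edgeR, 29 had an unadjusted p under 0.05, all higher in *xrn-2(RNAi)*, beside 6.66% of all genes tested that were higher and 5.83% that were lower. With DESeq2 and the same block, 27 members passed an adjusted p of 0.05, all higher, beside 8.07% of all genes tested that were higher and 8.90% that were lower. Most of these calls lie in members that reached the minimum count through the *xrn-2(RNAi)* libraries and so had to be higher there. Of the 39 members with at least 20 reads in each condition, 3 had an unadjusted edgeR p under 0.05 and 4 passed in DESeq2, all higher, where 650 and 931 of the 15323 such genes tested were higher by these criteria. The other 26 and 23 calls were in the 36 members with fewer than 20 reads in mock, and the shares over all 75 members are therefore no measure of the families. All 27 were among the 32 members that were at least 2-fold higher in both pairs. The call therefore depends on the tool, and with 2 libraries against 2 an exact permutation test of a single gene cannot go below p = 0.333. The labels do not say whether the replicates were independent cultures, so the p-values measure the spread between these libraries, which may in part be technical.

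In the Sra superfamily, 8 of 30 members were at least 2-fold higher in both pairs, 7 of them of the *sre* family and 1 of the *srb* family. *sre-1*, which in *C. elegans* is expressed in the ADL chemosensory neurons, had 121 and 96 reads in *xrn-2(RNAi)*, against 4 and 7 in mock. *sre-50*, the most abundant member of its family, had 133 and 191 reads, against 9 and 7. For both genes the conditions did not overlap, with an edgeR log2 fold change of 3.87 (standard error 0.65) for *sre-1* and 3.89 (standard error 0.60) for *sre-50*, each with an adjusted p of 0.254, and a DESeq2 adjusted p of 6.8e-06 for *sre-1* and 5.03e-08 for *sre-50*. *sre-45* had 108 and 105 reads in *xrn-2(RNAi)*, against 3 and 1 in mock, a scaled ratio of 30.5 in replicate 1 (95% counting interval 10.2 to 150.4) and of 102 in replicate 2 (17.9 to 4058). Its exons overlap those of *snx-14* on the opposite strand, and reads of the pair cannot be told apart.

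*sre-49* had 41 and 26 reads in *xrn-2(RNAi)*, against 1 and 0 in mock. With 3 reads as the floor for a library at 0, its count was at least 8.4-fold higher in *xrn-2(RNAi)* in replicate 2. *srb-1* had 21 and 22 reads, against 2 and 0, at least 7.11-fold higher in replicate 2. These values rest on few reads, and such intervals and floors cover counting error only, since reads were not reduced to distinct molecules. *sre-49* and *srb-1* likewise reached the minimum count through the *xrn-2(RNAi)* libraries.

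The other Sra members were less uniform. No *sra* or *srab* gene was 2-fold higher in both pairs on the scale with 8 added. With 1 added, *srab-14* (log2 1.92 and 1.15) and *sra-13* (log2 2.28 and 3.91) were. *srab-14*, the most abundant *srab* member, had 107 and 47.4 scaled reads in *xrn-2(RNAi)*, against 27.7 and 20.8 in mock, with log2 fold changes of 1.69 and 0.94, and its exons overlap those of *spi-1* on the opposite strand. *sra-14*, the most abundant *sra* member, had 33 and 22 reads in *xrn-2(RNAi)*, against 8 and 70 in mock, and *sra-36* had 17 and 16, against 0 and 39. In both, the mock libraries enclosed the *xrn-2(RNAi)* libraries. *srb-5* had 31 and 6 reads, against 49 and 0, so that its direction also differed between the replicates. *srb-16* had 31 and 51 reads in *xrn-2(RNAi)*, against 39 and 70 in mock, which was lower in both pairs (log2 -0.46 and -0.44), but the ranges overlap.

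*sra-13*, which in *C. elegans* acts in the AWA and AWC olfactory neurons, had 10 and 45 reads in *xrn-2(RNAi)*, against 1 and 2 in mock. *sra-11*, expressed in the AIY interneuron and so a member outside the sensory cilia, had 9 and 24 reads, against 4 and 5. Both had more reads in each *xrn-2(RNAi)* library than in either mock library, but neither had enough to enter the edgeR test.

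In the Srg superfamily, 24 of 45 members were at least 2-fold higher in both pairs: 11 of 20 *srx*, 4 of 7 *srt*, 3 of 4 *srg*, 3 of 4 *srxa*, 2 of 4 *sru* and 1 of 6 *srv* genes. *srg-69* had 626 and 1586 reads in *xrn-2(RNAi)*, against 16 and 10 in mock. Its scaled count averaged 1083 ± 732 in *xrn-2(RNAi)* and 13.7 ± 4.67 in mock (SD, n = 2 each). The edgeR log2 fold change of *srg-69* was 5.85 (standard error 0.76, adjusted p = 0.254), and the DESeq2 adjusted p was 3.44e-17. Per kb of exon, it was the most abundant member in *xrn-2(RNAi)* (1005 scaled reads per kb, against 12.7 in mock), and its exons overlap those of *F09E5.11* on the opposite strand. *srg-31*, singled out after its values were seen, had 76 and 443 reads, against 17 and 3. Its libraries did not overlap by condition, but its *xrn-2(RNAi)* replicates lay far apart, with an edgeR log2 fold change of 3.96 (standard error 1.60).

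*srv-1* was the member with the most reads and did not share this pattern. It had 629 and 1106 reads in *xrn-2(RNAi)*, against 700 and 658 in mock, lower in replicate 1 (log2 -0.39) and higher in replicate 2 (log2 0.70), with an edgeR log2 fold change of -0.11 (standard error 0.38, adjusted p = 0.941). Its exons overlap those of *zak-1* on the opposite strand. *srx-45* and *srx-58* had the next most reads in mock. *srx-45*, whose exons overlap those of *K01B6.3* on the opposite strand, had 131 and 64 reads in *xrn-2(RNAi)*, against 202 and 40 in mock, and *srx-58* had 62 and 30, against 195 and 18. Thus the 3 members best expressed in mock were lower in replicate 1 and higher in replicate 2, and for *srx-45* and *srx-58* the ranges of mock enclose those of *xrn-2(RNAi)*.

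In contrast, several Srg genes were almost silent in mock. *srv-10* had 155 and 406 reads in *xrn-2(RNAi)*, against 1 and 1 in mock, a ratio of 132 in replicate 1 (95% counting interval 23.3 to 5227) and 394 in replicate 2 (70.2 to 15583). *srt-52* had 105 and 95 reads, against 0 and 0, at least 29.7-fold and 30.7-fold higher. *srt-54* had 77 and 160 reads, against 2 and 2, with ratios of 32.7 (8.74 to 274.5) and 77.6 (21.1 to 646). *sru-35* had 101 and 70 reads, against 3 and 0. For all 4 genes every *xrn-2(RNAi)* library had at least 70 reads and no mock library had more than 3. These 4 genes thus reached the minimum count through the *xrn-2(RNAi)* libraries, and their ratios and intervals do not allow for that choice.

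*srxa-10* had 65 and 177 reads in *xrn-2(RNAi)*, against 1 and 3 in mock, and its exons overlap those of *mcm-6* on the opposite strand. *srxa-4*, the *srxa* member that was not 2-fold higher in both pairs on the scale with 8 added, had 7 and 46 reads, against 0 and 0. The 4 *srxa* members together, of 17 genes in the family, had 334 and 395 reads in *xrn-2(RNAi)*, against 2 and 5 in mock. *srg-34* had 58 and 81 reads in *xrn-2(RNAi)*, against 24 and 34, so that its libraries did not overlap by condition either, but its log2 fold changes were 0.85 and 1.05. *srt-39*, which lies downstream of *atn-1* (alpha-actinin) and is annotated as the second gene of an operon with it, had 65 and 112 reads, against 19 and 18, while *atn-1* had 20926 and 14226, against 18173 and 17783. The edgeR log2 fold change of *srt-39* was 1.79 (standard error 0.56, adjusted p = 0.367).

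The remaining Srg members that were 2-fold higher in both pairs had fewer reads. *srg-65* had 24 and 56 reads in *xrn-2(RNAi)*, against 2 and 9 in mock, and *sru-22* had 20 and 52, against 1 and 1. *srx-41* had 66 and 44, against 8 and 6, *srx-116* had 28 and 96, against 3 and 1, and *srx-18* had 16 and 43, against 1 and 3. *srx-111*, whose exons overlap those of *T24E12.12* on the same strand, had 29 and 19 reads, against 2 and 0. In each of these 6 genes both *xrn-2(RNAi)* libraries lay above both mock libraries, and those not covered by the naming rule were added after their values were seen.

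**Figure D2:**
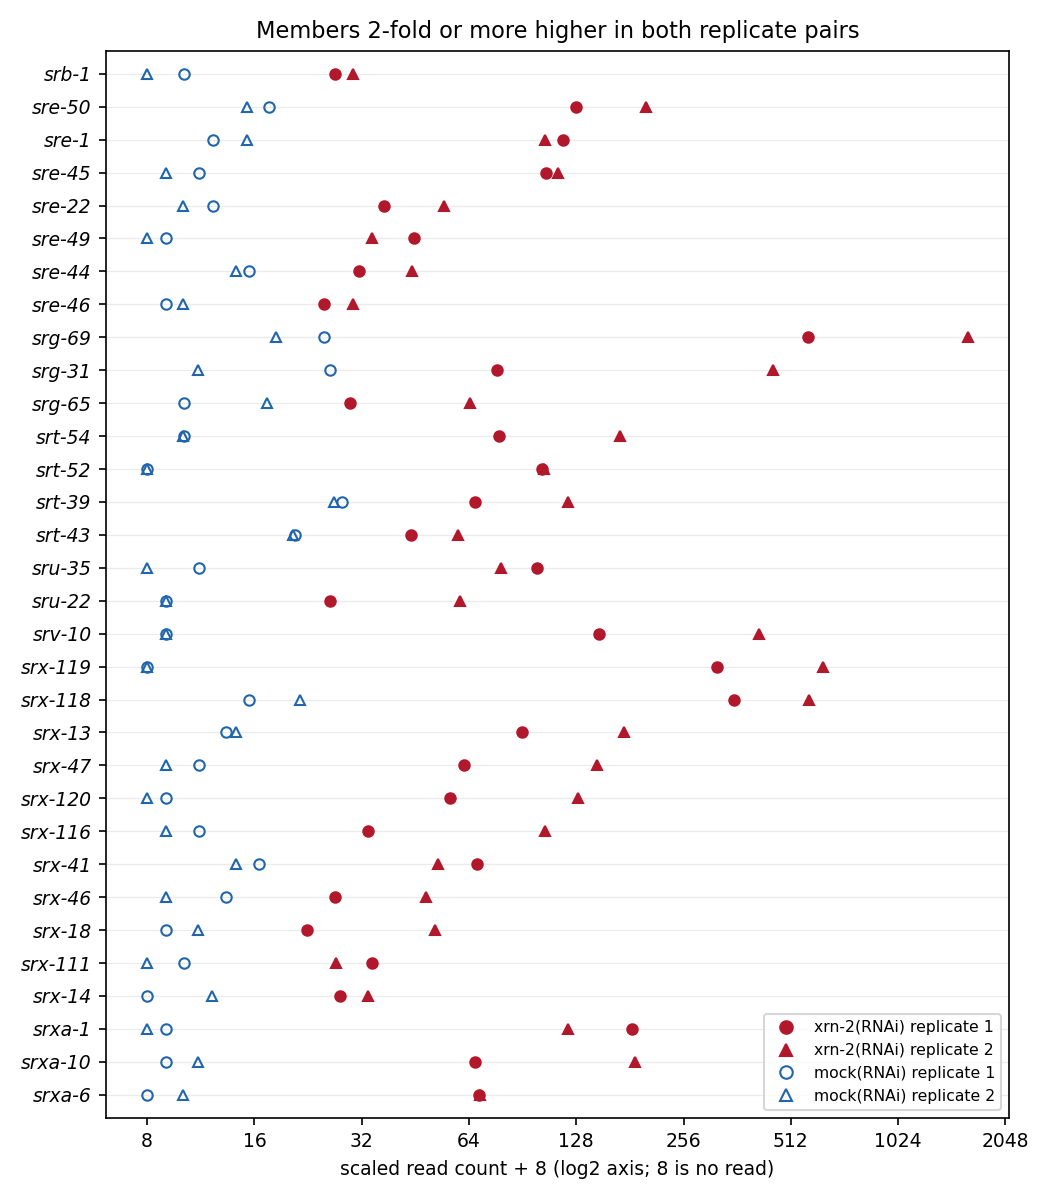
Scaled read count plus 8 (log2 axis) in each library for the 32 members at least 2-fold higher in both pairs, grouped by family; filled red symbols are xrn-2(RNAi), open blue symbols mock(RNAi), circles replicate 1 and triangles replicate 2. In every row both red symbols lie to the right of both blue ones, and for srx-119 and srt-52 both mock libraries are at 8, which is no read.

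Together, the 75 members had 4961 and 8077 reads in *xrn-2(RNAi)*, against 1991 and 1547 in mock, which after scaling is 2.11-fold higher in replicate 1 and 5.06-fold higher in replicate 2. The Sra members contributed 1062 and 1100 reads, against 451 and 435, and the Srg members 3899 and 6977, against 1540 and 1112. *srv-1* alone had 700 of the 1991 and 658 of the 1547 reads in mock. Without *srv-1*, the log2 ratio of the sums was 1.51 and 2.93, compared with 1.08 and 2.34 with it. Without *srg-69*, *srx-118*, *srx-119* and *srv-10* it was 0.57 and 1.64.

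How far the higher values rest on the minimum count was examined by choosing the genes in other ways. All 75 members had at least 20 reads over the *xrn-2(RNAi)* libraries, but only 39 had as many over the mock libraries. Thus 36 members passed the minimum through the *xrn-2(RNAi)* libraries and 0 through mock, where over all genes with at least 40 reads the numbers were 783 and 85. The 36 include 27 of the 32 members that were 2-fold higher in both pairs. Of the 39 with at least 20 reads in each condition, only 5 (*srg-69*, *srx-118*, *srg-31*, *srt-39* and *srt-43*) were 2-fold higher in both pairs, and the medians of the 39 were -0.17 and 0.65 (log2), beside 0.14 and 0.34 over the 15328 such genes of the table. At least 2-fold higher in both pairs were 12.8% of the 39 and 5.05% of those 15328 genes. Higher in both pairs by any amount were 13 of the 39 (33.3%), beside 47.1% of those genes, and lower in both 5 (12.8%), beside 17.2%. The conditions did not overlap, with *xrn-2(RNAi)* higher, in 11 of the 39 (28.2%), beside 33.1%, and lower in 2 (5.13%), beside 10.7%. *srt-43*, outside the naming rule, had 40 and 51 reads in *xrn-2(RNAi)*, against 12 and 12 in mock. When family genes were chosen on 20 reads in mock alone, 44 genes entered, with medians of -0.24 and 0.56. Over all 430 family genes the medians were 0.00 and 0.17, with 33 genes at least 2-fold higher in both pairs and 0 that much lower. The 1 gene not among the members, *srt-11*, had 9 and 10 reads in *xrn-2(RNAi)*, against 0 and 0 in mock. Most members with higher values thus had few reads in mock, and most family genes had too few reads in any library for a fold change.

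**Figure D3:**
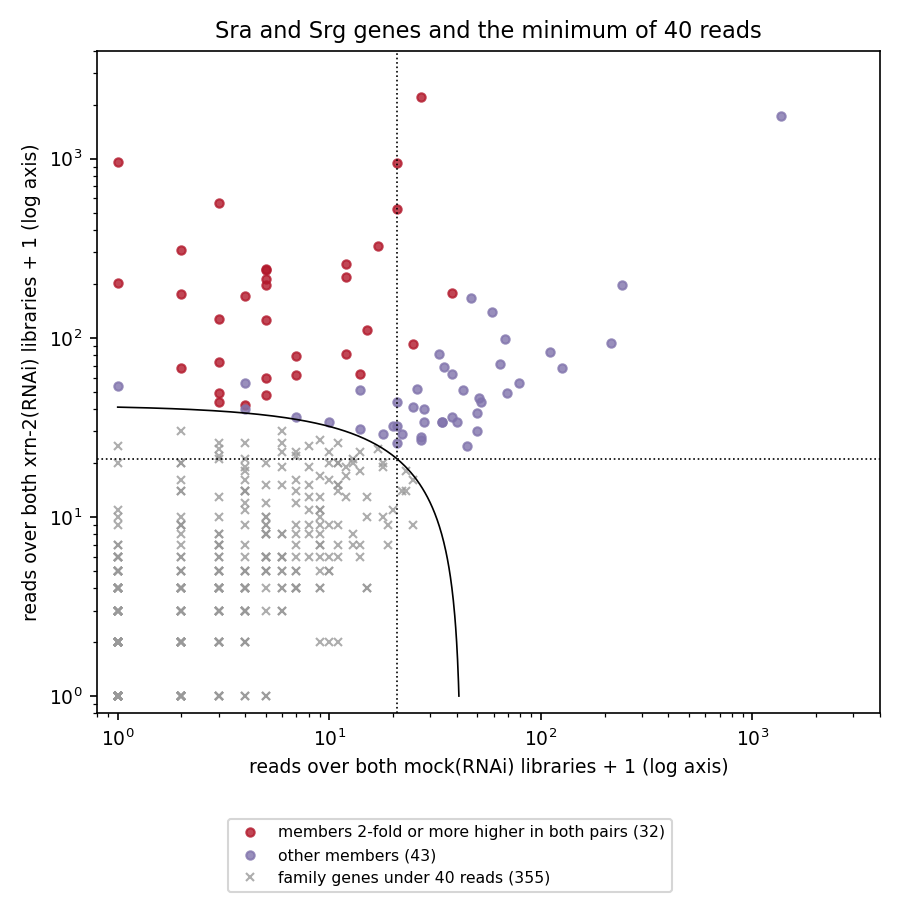
Reads over both xrn-2(RNAi) libraries (y axis) and over both mock(RNAi) libraries (x axis), each plus 1 on log axes, for the 430 family genes; the curve marks 40 reads in all and the dotted lines 20 reads per condition. The 36 members left of the vertical dotted line passed only through the xrn-2(RNAi) libraries, and 0 members lie below the horizontal one.

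Just inside the minimum were *srx-115* (41 reads), *sra-11* and *srx-85* (42 reads each). *srx-115* had 17 and 18 reads in *xrn-2(RNAi)*, against 5 and 1 in mock, and *srx-85* had 5 and 34, against 2 and 1. Just outside were *sre-2*, *sre-3* and *srxa-12*, with 39 reads each. These are descriptions of the edge of the set and carry no test.

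The dependence on depth was described by ranges of summed reads, which the *xrn-2(RNAi)* counts themselves help to set. Among the 41 members with 40 to 99 reads, the median log2 fold change was 0.32 and 0.90, beside 0.23 and 0.70 for the 1174 genes of that range in the whole table. For the 15 members with 100 to under 200 reads it was 0.85 and 1.38, beside 0.24 and 0.69 for 1046 genes. For the 12 members with 200 to under 400 reads it was 2.87 and 3.68, beside 0.09 and 0.60 for 1280 genes. In the lowest range 11 of 41 members and 176 of 1174 genes were at least 2-fold higher in both pairs. With 1 added in place of 8, the medians of this range were 0.54 and 1.82 for members and 0.36 and 1.08 for all genes, so that the distance between them depends on the pseudocount. Fewer than 20 reads in mock were seen in 20 of the 41 members of the lowest range. Above it, they were seen in 5 of 15 members with 100 to under 200 reads and 9 of 12 with 200 to under 400. The same held for 1 of 3 members with 400 to under 800 reads and 1 of 4 with 800 or more. The part of depth in mock in these medians was not tested. Every range of members above the lowest holds fewer than 20 genes. Of the 7 members with at least 400 reads, 5 were at least 2-fold higher in both pairs. These were 2 of 3 with 400 to under 800 reads, beside 169 of 1507 genes of that range. The others were 3 of 4 with 800 or more, beside 503 of 11189.

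Scaling mattered less. Under TMM scaling, which moved the median of all genes to 0.01 and 0.02, the members' medians were 0.85 and 1.24, and 29 of the 32 members stayed at least 2-fold higher in both pairs under TMM and median-of-ratios scaling. The 3 that did not, under either, were *sre-44*, *srt-43* and *srx-46*. Adding 1 in place of 8 raised the members' medians to 1.49 and 2.34, beside 0.18 and 0.39 for all genes. With 1 added, 38 members were at least 2-fold higher in both pairs, against 32 with 8 added. The numbers over all genes moved with the setting too. At 40 to 99 reads, 292 of 1174 genes and 15 of 41 members were that much higher with 1 added. With 8 added they were 176 and 11, and under TMM scaling 147 and 9.

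**Figure D4:**
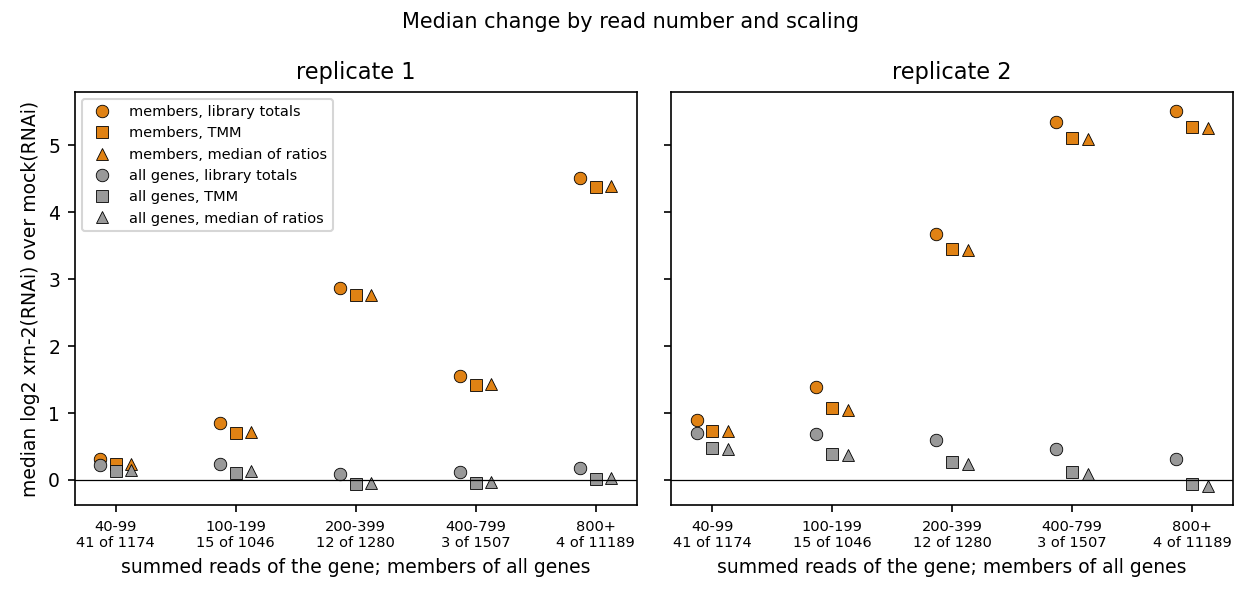
Median log2 fold change, xrn-2(RNAi) over mock(RNAi), for members (orange) and all genes (grey) by summed reads of the gene, in replicate 1 (left) and replicate 2 (right); symbols are the 3 scalings, and the numbers under each range are members of all genes. In every range the 3 scalings differ less than members and all genes do, except at 40 to 99 reads, where members and all genes lie close together.

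The members were mostly on chromosomes V (29), II (26) and IV (13), with 3 on III and 2 each on I and X. The 32 members that were 2-fold higher in both pairs were on V (14), II (13), IV (3), I (1) and III (1). Of all genes with at least 40 reads, those that much higher were 10.9% on V, 8.60% on II and 6.69% on IV. On III, I and X they were 7.22%, 5.57% and 4.35%. Several lay next to one another on the same strand. *srx-118*, *srx-119* and *srx-120* follow the homeobox gene *ceh-99* on chromosome II. *ceh-99* had 2353 and 3020 reads in *xrn-2(RNAi)*, against 116 and 135 in mock. *srx-118* had 384 and 562 reads, against 7 and 13, with an edgeR log2 fold change of 5.17 (standard error 0.51, adjusted p = 0.254) and a DESeq2 adjusted p of 3.03e-21. *srx-119* had 344 and 616 reads, against 0 and 0, at least 97.3-fold higher in replicate 1 and further apart in replicate 2. *srx-120* had 54 and 120 reads, against 1 and 0. *srx-119* and *srx-120* reached the minimum count through the *xrn-2(RNAi)* libraries, which their values do not allow for. All 4 genes of this run were at least 2-fold higher in both pairs.

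On chromosome V, *srx-47* and *srx-46* follow *try-5*, which encodes a trypsin-like protease of the seminal fluid. *try-5* had 479 and 770 reads in *xrn-2(RNAi)*, against 13 and 10 in mock, *srx-47* had 60 and 137, against 3 and 1, and *srx-46* had 21 and 40, against 5 and 1. Elsewhere on V, *srxa-1* and *srxa-6* follow *Y44A6C.2*, with 323 and 349 reads, against 0 and 0, for *Y44A6C.2*. *srxa-1* had 195 and 112 reads, against 1 and 0, and *srxa-6* had 67 and 60, against 0 and 2. In both runs, the receptor genes and the gene before them were higher in *xrn-2(RNAi)* together. The run on chromosome IV differed: *perm-4*, an eggshell gene, had 6058 and 14901 reads in *xrn-2(RNAi)*, against 827 and 25910 in mock, whereas *srx-13*, which follows it, had 91 and 165, against 5 and 6, and *srx-14* had 22 and 25, against 0 and 4. Thus *srx-13* and *srx-14* were higher in both pairs while *perm-4* was higher in replicate 1 and lower in replicate 2. These runs were picked after the values were seen.

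**Figure D5:**
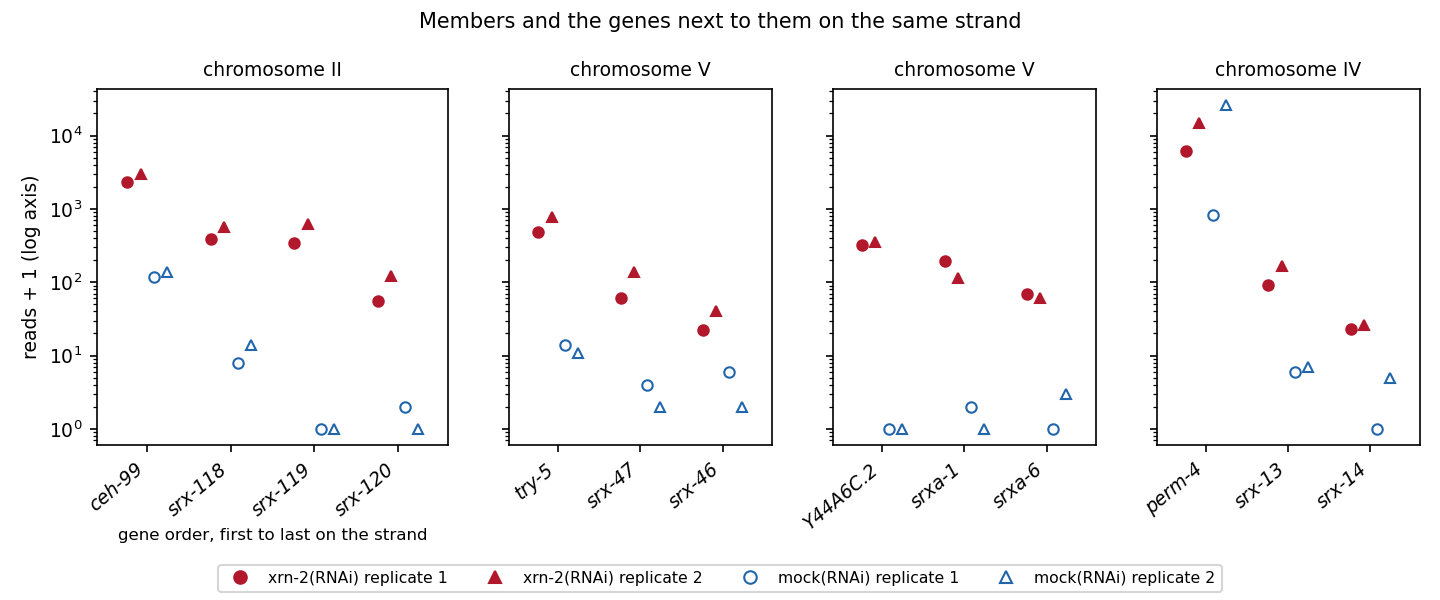
Reads plus 1 (log axis) in each library for 4 runs of genes that follow one another on the same strand, in order along the strand; filled red symbols are xrn-2(RNAi), open blue symbols mock(RNAi). In 3 runs the receptor genes and the gene before them are higher in xrn-2(RNAi) in both replicates, while perm-4 in the fourth is highest in mock replicate 2.

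Over all members, the next gene upstream on the same strand had at least 40 reads in 60 cases and was at least 2-fold higher in both pairs in 12 (20%), beside 7.24% for all genes with at least 40 reads. For the 32 members 2-fold higher in both pairs it was 9 of 29 (31%) upstream and 8 of 22 (36.4%) downstream, beside 21.8% and 22.7% for all genes that were themselves 2-fold higher in both pairs. Some of these neighbours are members themselves, so the pairs are not independent, and no test was made. For other members the neighbours differed. The gene before *srv-10*, the cuticle gene *cut-2*, had 11414 and 9997 reads in *xrn-2(RNAi)*, against 11069 and 135 in mock, and was higher in replicate 2 (log2 6.09) but not in replicate 1 (log2 -0.19). The gene after *srv-10*, the collagen gene *col-162*, had 1213 and 2634 reads, against 552 and 720, and was higher in both pairs (log2 0.89 and 1.82). The gene before *sre-45*, the neprilysin gene *nep-17*, had 23543 and 22966 reads, against 30828 and 75315, and was lower in both pairs. The gene after *sre-45*, *lin-38*, had 881 and 765, against 335 and 514, and was higher in both.

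The exons of 19 members overlap those of another gene, 18 of them on the opposite strand, and the sources do not say whether counting used the strand. Among the 56 members without such overlap, 26 were at least 2-fold higher in both pairs, with medians of 1.04 and 1.56. The families contain close paralogs, and the handling of reads that match several genes is not given in the sources used here.

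The Str superfamily, another group of chemoreceptor families, gave values of the same order. Of its 82 genes with at least 40 reads, 31 were at least 2-fold higher in both pairs and 1 that much lower, with medians of 0.71 and 2.00. Over all genes with at least 40 reads, 7.46% were that much higher and 2.20% that much lower. No Str gene passed edgeR's adjusted p. Of the 72 tested, 27 were higher and 2 lower at an unadjusted edgeR p under 0.05, beside 6.66% and 5.83% of all genes tested. Of 29 genes of the other chemoreceptor families (*srw*, *srz*, *srbc*, *srsx* and *srr*), 10 were 2-fold higher in both pairs. Both lists were chosen by the same minimum count as the members, which favours genes that are high in 1 condition. Their depth in mock was not examined, so these counts describe the genes chosen and not the families. The difference between these lists and the members was not tested.

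Lists of other sensory and neuronal genes were described in the same way, without matching their depth in mock to that of the members. Of all genes with at least 40 reads, 7.46% were at least 2-fold higher in both pairs. The list kept under chemosensory signalling has 38 genes and also holds guanylyl cyclase genes of thermosensory neurons, among them *gcy-18*. Of these 38, 2 were at least 2-fold higher in both pairs (*gpa-4*, a G protein alpha subunit, and *gcy-18*), and the medians were -0.15 and 0.62. *odr-4*, needed to bring receptors to the cilia, had 2582 and 2050 reads in *xrn-2(RNAi)*, against 2788 and 1694 in mock. Of 41 genes of the sensory cilia, 6 were 2-fold higher in both pairs, with medians of -0.03 and 0.65. These medians lie close to those of the 39 members with at least 20 reads in each condition (-0.17 and 0.65), of which 12.8% were 2-fold higher in both pairs, beside 14.6% of the cilia genes. Among the cilia genes, *osm-12*, a Bardet-Biedl syndrome gene, had 604 and 737 reads, against 41 and 29. The list kept under pan-neuronal has 34 genes and also holds genes that are not expressed in all neurons. Of these 34, 1 was 2-fold higher in both pairs (*snn-1*, with medians of the list at -0.26 and 0.42). The list kept under sensory neuron fate has 28 genes and also holds genes that are not fate regulators. Of these 28, 1 was 2-fold higher in both pairs (*tph-1*, tryptophan hydroxylase) and 1 that much lower (*vap-1*), with medians of -0.13 and 0.34. Neither of these 2 genes is a fate regulator. No gene of these 4 lists passed edgeR's adjusted p of 0.05.

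Markers of other tissues differed between the pairs. The 15 germline and sperm markers had medians of 0.71 and 0.12, with *msp-19*, *msp-56* and *msp-77* at 0 in every library, the 5 hypodermis markers -0.82 and 4.35, the 5 intestine markers 0.01 and -0.39 and the 4 body wall muscle markers 0.09 and -0.37. None of these lists had a gene that was 2-fold higher in both pairs. Their part in the members' values was not tested.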

How the data were processed

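Poly(A) RNA was measured in 2 *xrn-2(RNAi)* and 2 mock libraries, assigned by their titles. The authors aligned the reads to ce10 with qAlign of QuasR (spliced alignment) and deposited raw counts of reads over the exons of each WS220 gene. Symbols came from the reference's naming table (19179 of 20380 identifiers matched). The reference annotation is WBcel235, another build, so only chromosomes, strands, exon lengths and gene order were taken from it.

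Each library was brought to the mean total and given a pseudocount of 8, and *xrn-2(RNAi)* was compared with mock on the log2 scale per replicate. Tests were run on the counts using the quasi-likelihood test of edgeR 4.0.16 under R 4.3.3 (TMM, filterByExpr, Benjamini-Hochberg adjustment over 16178 genes). The replicate entered as a block because the methods pair libraries by replicate, and deviations from the group means correlated between libraries of one number (r = 0.571 across genes). A standard error is |log2 fold change| over the root of F. DESeq2 1.42.0 was the alternative. Ratios of counts have exact 95% intervals, and a count of 0 was replaced by a floor of 3 reads per library. Only the edgeR fit with the block was also run on simulated counts, and the outcome is not used here. The members, gene lists and rules for naming genes were chosen with earlier results of these data known. Named were the most abundant member of each family, the 6 highest and 6 lowest edgeR fold changes where the mean scaled count reached 50, the 5 smallest p-values, up to 12 members changed at least 2-fold the same way in both pairs, members with a known neuron, second genes of operons, those beside the minimum count and those with no read in a library. Genes named beside this rule were chosen after their values were seen.

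Alternatives were other scalings, pseudocounts, minimum counts and filters, fits without the block or with DESeq2, and each library left out. Totals of 41105706 to 48451504 reads per library set the precision: at the members' depth, counting error is wide.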

Additional observations from a re-analysis of the deposited data

How the results depend on the processing

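No member passed an adjusted p of 0.05 in edgeR under any scaling, filter or left-out library that was tried. The members' smallest adjusted p was 0.254 with all libraries, 0.0530 without mock replicate 1, 0.225 without mock replicate 2, and 0.755 and 1.00 without xrn-2(RNAi) replicate 1 and 2. Without the replicate block, edgeR also called 0 members (0 genes in all, 1644 at an unadjusted p under 0.05), while DESeq2 called 27 members higher with the block and 22 without it, 21 of them shared. Of all 16178 genes tested, DESeq2 called 1306 higher and 1440 lower with the block, and 575 higher and 279 lower without it. With the block and all libraries, 29 members were higher at an unadjusted edgeR p under 0.05, beside 6.66% of all genes tested. The medians in replicates 1 and 2 moved to 1.49 and 2.34 with a pseudocount of 1 and to 1.51 and 2.45 with 0.5. They moved to 0.12 and 0.60 with at least 10 reads, to 1.86 and 2.77 with 100 and to 2.88 and 3.71 with 200. Choosing on mock alone gave -0.24 and 0.56, and every family gene 0 and 0.17. Of the 200, 34 and 19 family genes with at least 10, 100 and 200 reads, 96, 24 and 16 were higher in both pairs and 26, 2 and 0 were lower. Choosing on mock alone gave 13 and 8 of 44, and every family gene 132 and 46 of 430. Lower in both pairs were 8 members with TMM, 8 with median-of-ratios scaling and 3 without overlapping exons. At least 2-fold higher in both pairs were 38 of 75 with a pseudocount of 1 or 0.5, 21 of 34 with 100 reads, 15 of 19 with 200 and 5 of 44 chosen on mock alone. The pair left out set the mean of the medians between 0.91 and 1.45.

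Among the named genes, the edgeR log2 fold change of *srv-1* was 0.16 with library totals and ranged from -0.58 to 0.29 with 1 library left out, that of *sra-14* from -1.80 to 1.38, that of *srx-58* from -2.47 to 0.89 and that of *srx-45* from -1.44 to 0.82. Without the block it was -0.68 for *sra-36* (-0.71 with DESeq2) and -0.80 for *srb-5* (-0.78 with DESeq2), and with 1 library left out it ranged from -1.69 to 6.94 and from -2.35 to 7.07. *sra-14* turned round only without mock replicate 2, *srx-58* and *srx-45* only without mock replicate 1 and *srv-1* only without xrn-2(RNAi) replicate 1, among the left-out libraries. *sra-36* stayed positive only without mock replicate 2 and *srb-5* only without mock replicate 1. The cause was not tested. A lone library of a condition was assumed to vary like the other. Depth limits members with few reads: at 0 to 3 reads in mock, the ratios have only a lower bound or a wide interval. The alternatives chosen after seeing the data were the minimum on either condition alone, every family gene, the members without overlapping exons and the sums without 4 abundant members.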
